A study of Ipomoea batatas with 28 samples.

Results

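The loci described here are 100 numbered loci of the sweet potato (Ipomoea batatas) root transcriptome in which the division of transcript abundance between the rows of a locus differed most between storage and fibrous roots. Each row of the deposited table has an ID made of a G number and a TU number, and all rows with the same G number are called a locus here. The share of a row is its TPM divided by the summed TPM of its locus in the same library, in percent. The 100 loci were chosen on the deposited values, as those with the largest absolute difference in the mean share of any row between the storage and the fibrous libraries. They hold 372 rows and come from 5059 loci that could be chosen, which had 2 or more rows and a mean sum of at least 10 TPM in both root classes. The table held 49007 G numbers in all, of which 17095 had 2 or more rows, and 99697 rows of any kind.

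All roots were from wild type plants, with no treatment given in the labels, and RNA came from the middle of the root. The fibrous roots were of stage S4 (1.5 mm in diameter) and stage S8 (2 mm), the pencil roots of S10 (3.5 mm) and S12 (5 mm), and the storage roots of S14 (10 mm), S16 (15 mm) and S20 (25 mm). With 4 biological replicates per stage there were 28 libraries, 8 fibrous, 8 pencil and 12 storage. The series asks what changes as a root tuberizes, that is, as it thickens into a storage root, and the comparison made here is of which row of a locus carries its transcripts at each stage.

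A plant gene can give several transcripts through different start sites, splicing and end sites, and these can encode different proteins or differ in stability. Sweet potato is a hexaploid, so a gene usually also has several near-identical copies, each of which may be expressed in its own pattern. Storage roots arise when cambial cells of a young root divide and the new cells fill with starch, while roots that lignify stay thin.

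The table does not say whether rows with 1 G number are transcripts of 1 gene, gene copies or fragments of a gene model, and the word locus is used only for the shared number. None of the IDs (0) matched the reference table of 175826 rows, so no locus has a gene name, role or sequence here, and the tissue labels could not be checked against marker genes. Reads that fit several near-identical rows may be divided between them in an uncertain way. TPM is an abundance scaled to the same total in every library. How many reads lie behind a share cannot be read from it, and errors given here are those between replicates. The share of a row does not change when a library is rescaled, while the TPM of a row does. In whole root sections, fewer cells of a type and less RNA per cell cannot be told apart.

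The shift was large in most of the chosen loci, and in 62 of them the most abundant row was a different one in storage roots than in fibrous roots. The same was true of 7.77% of all loci that could be chosen. The leading row of a locus, the one with the largest difference, differed by a median of 40.2 percentage points between the classes, with a range from 31.6 to 80.1, against a median of 4.11 points over all 5059 loci. These values chose the loci and carry no test. The last 2 loci inside the 100 differed by 31.8 and 31.6 points, and the next 2 outside both by 31.4 points. The fibrous and storage libraries did not overlap in the share of the leading row in 72 of the 100 loci, against 4.37% of all loci that could be chosen, again as a description of what the choice used.

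**Figure D1:**
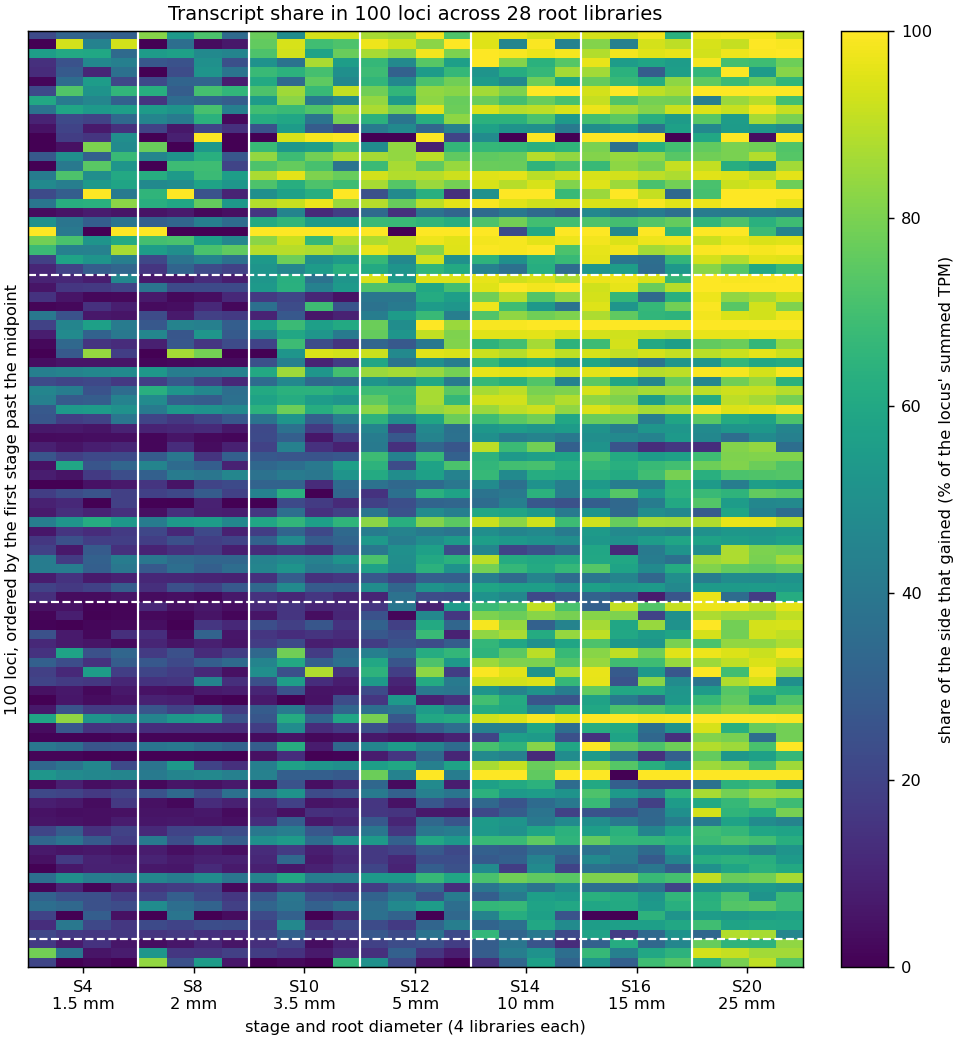
Share of each of the 100 loci carried by the side that gained share (colour, percent of the summed TPM of the locus), in 28 libraries ordered by stage and diameter, with solid white lines between stages. That side is the leading row where it gained share, and the sum of the other rows where it lost share. Loci are ordered by the first stage, counted from S10 on, at or past the midpoint between the fibrous and storage means. Dashed lines lie between groups of 26 loci (S10), 35 (S12), 36 (S14) and 3 (S16). Most rows of the plot pass from dark to light between S10 and S14, and some hold dark and light libraries in 1 stage.

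The chosen loci were often loci of many rows. Of the 100, 34 had 2 rows, 26 had 3, 18 had 4 and 22 had 5 or more, where 57.8%, 23.2%, 10.3% and 8.80% of all loci that could be chosen did. The mean was 3.72 rows against 2.80, and the most was 14. The TU numbers of a locus ran without a gap in 58 of the 100 loci and in 60.7% of all. Of the 372 rows, 10 were listed at 0 in every library, 290 had a mean of at least 1 TPM, and 237 differed by 10 points or more in share between storage and fibrous roots.

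In a locus with 2 rows one share falls by as much as the other rises, so the direction of a leading row is informative only in the 66 loci with 3 or more rows. It lost share in 44 of these and gained in 22, while over all such loci that could be chosen 1011 lost and 1117 gained. Because shares sum to 100%, the row with the second largest difference must move the opposite way with 3 or 4 rows, ties apart. Its size can fall below 50% of the leading row's difference only with 4 or more rows. In the 40 loci with 4 or more rows it moved the opposite way in 40, a direction that was fixed in the 18 with 4 rows. It did so by more than 50% of the leading row's difference in 31 (77.5%), with a median size of 70.3%. Of the 965 such loci that could be chosen, 520 had 4 rows. Over the 965 it moved the opposite way in 99.2%, by more than 50% in 89.4%, with a median size of 74.7%, so the chosen loci did not stand out in this.

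Changes of share came with different changes in abundance. For each locus the leading row was 1 side and the sum of its other rows was the other side. The side whose share was higher in storage roots was the gaining side. In loci with 3 or more rows the summed side can hold rows that moved the other way. Storage and fibrous class means of each side were compared as log2(mean TPM + 1). The side that gained share had a median log2 fold of 1.14 (range -1.83 to 6.89) and the side that lost it a median of -1.81 (range -6.72 to 1.02), where all loci that could be chosen had medians of 0.39 and -0.04. Taking a 2-fold change as up or down, the losing side was down and the gaining side flat in 38 loci, the losing side was down and the gaining side up in 32, and the losing side was flat and the gaining side up in 23. These patterns held 9.31%, 0.929% and 13.3% of all loci that could be chosen. Both sides were down in 5 loci, both up in 1 and both flat in 1, whereas both were flat in 61.6% of all loci. The folds use the libraries of the choice, and a large shift of share leaves little room for both sides to stay flat. The contrast with all loci therefore describes the choice and carries no test. The split between these patterns moved with the scaling of the libraries. After median-of-ratios scaling, an alternative chosen after the data were seen, the 3 main patterns held 52, 30 and 11 loci and both sides were down in 7, where 16.1%, 0.712%, 5.42% and 11.7% of all loci that could be chosen fell in these patterns.

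**Figure D2:**
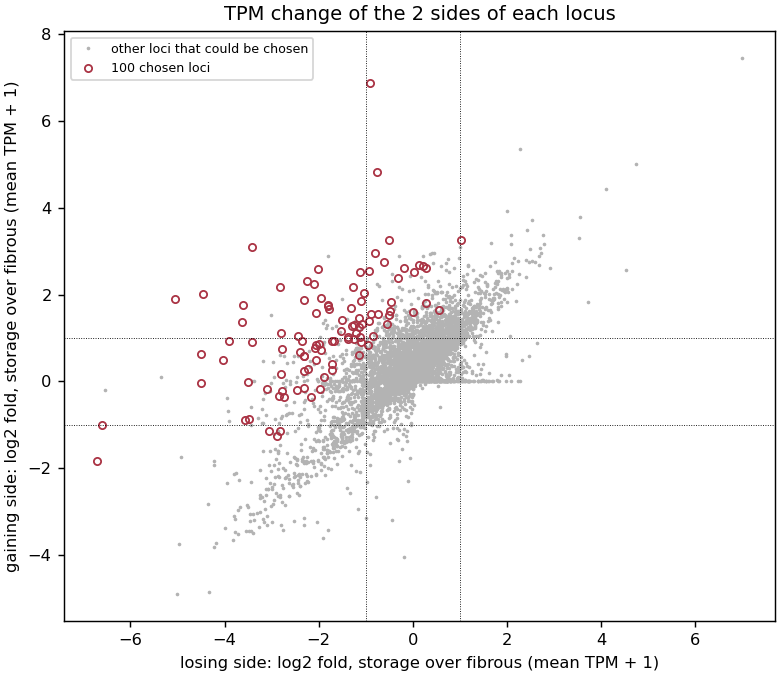
Log2 fold between storage and fibrous class means (TPM + 1, as deposited) of the side that lost share (horizontal axis) and the side that gained it (vertical axis), 1 point per locus, with dotted lines at a 2-fold change. The sides are the leading row and the sum of the other rows, in the libraries that the choice used. The 100 chosen loci (open red circles) overlap with the other loci that could be chosen (grey). Their median folds were 1.14 on the gaining and -1.81 on the losing side, against 0.39 and -0.04 over all loci.

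The summed level of the chosen loci was more often lower than higher in storage roots, under both scalings tried, while the direction for loci in general turned with the scaling. The median sum was 40.4 TPM in fibrous, 32.7 in pencil and 28.3 in storage roots, against 24.2, 29.9 and 28.6 over all loci that could be chosen. The median log2 fold of the sum, storage over fibrous, was -0.49, against 0.27 over all. The sum was at least 2-fold lower in storage roots in 34 of the 100 loci, at least 2-fold higher in 11 and within 2-fold in 55, where 12.2%, 14.6% and 73.3% of all loci were. With median-of-ratios scaling the medians were -1.05 and -0.28, and 53 loci were lower and 5 higher, where 21.8% of all loci were lower and 4.19% higher.

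The pencil libraries took no part in the choice, and in them most loci held a share between those of the classes on either side. On a scale where 0% is the fibrous mean and 100% the storage mean of the leading row, the pencil mean lay at a median of 45.8% (quartiles 26.8% and 64.3%). It lay between 0% and 100% in 93 loci, below in 3 and above in 4, whereas 49.6% of all loci that could be chosen lay between. A locus whose fibrous and storage means lie far apart leaves more room between them, so this difference from other loci is a description. The median was 35.0% at S10 (quartiles 12.3% and 51.7%) and 58.0% at S12 (41.4% and 78.6%). Over all loci that could be chosen, most with small differences, the medians were 64.4% for the pencil mean, 58.0% at S10 and 70.7% at S12. Within the storage class, whose mean is 100% by definition, stage S14 had 93.6%, stage S16 93.0% and stage S20 115%. The most abundant row of the pencil roots was that of the fibrous roots in 33 of the 62 loci that changed it, that of the storage roots in 28, and another row in 1. Over all 393 loci that changed their most abundant row these counts were 165, 214 and 14.

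The loci did not pass the midpoint at the same stage. Counted from S10 on, the first stage with a mean at or past 50% was S10 in 26 loci, S12 in 35, S14 in 36 and S16 in 3. The fibrous stages were left out of this count, although 1 locus was at or past 50% at S4 and 1 at S8. The libraries of a pencil stage also differed among themselves. The median position over the 100 loci in the S10 libraries was 29.0% in replicate 1, 55.1% in replicate 2, 15.2% in replicate 3 and 28.8% in replicate 5. In the S12 libraries it was 67.4% in replicate 1, 40.0% in replicate 2, 77.8% in replicate 4 and 63.0% in replicate 5. The stages therefore overlapped, with S10 replicate 2 above S12 replicate 2, and the other 3 libraries of S10 lay below all of S12. Fibrous libraries lay between -6.03% and 3.04%, those of S14 between 86.0% and 102%, of S16 between 86.2% and 107%, and of S20 between 114% and 116%.

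**Figure D3:**
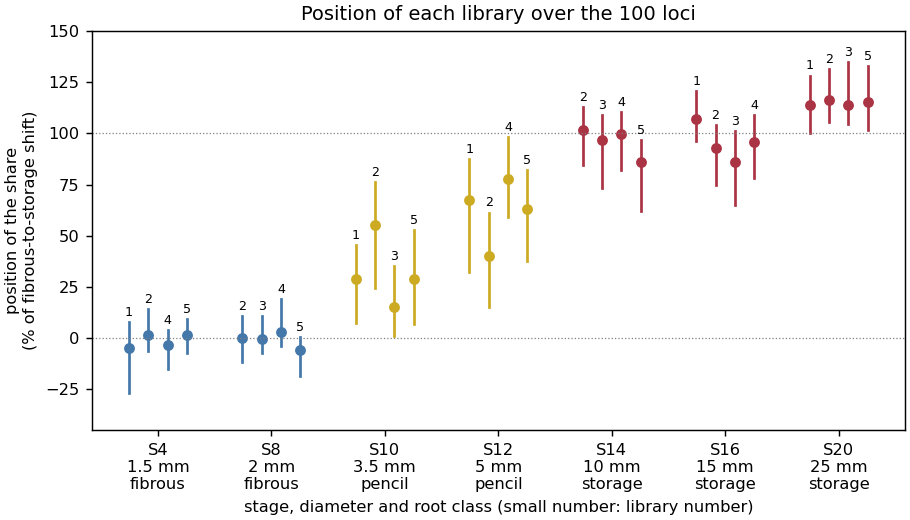
Position of each library over the 100 loci, as the median (point) and quartiles (bar) of the leading row's share on a scale from the fibrous mean (0%) to the storage mean (100%), by stage, diameter and root class. Small numbers are library numbers. Pencil libraries spread from 15.2% to 77.8%, with those numbered 2 at 55.1% in S10 and 40.0% in S12, and S20 libraries lie at 114% to 116%.

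The step from S10 to S12 was the test in libraries the choice did not use. The change came from the pencil libraries alone, while the spread behind each p came from all 28 libraries, those of the choice included. The share of the leading row moved in the direction of its storage minus fibrous difference, called toward storage here, in 93 of the 100 loci. The median change toward storage was 10.6 points over the 100. Of 4786 loci with a direction, 56.4% moved toward storage, and the median was 0.363 points. Most loci had small storage minus fibrous differences, with a median size of 4.11 points over all 5059. A small difference leaves less room for a step and a less certain direction, so the contrast with the 100 loci is a description. Single loci rarely passed the test. With limma fitted to the shares of all rows, Benjamini-Hochberg adjustment and a minimum change of 10 points, 1 of the 100 loci was called, in the direction of the storage roots, against a background of 0.0398% (2 of 5030 loci whose leading row was above 0 in any library). At an unadjusted p under 0.05 there were 32 member loci and 233 loci in all. The median SE of a step was 7.21 points in the 100 loci.

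The count of 1 rested on single libraries. It was 0 without replicate 1, 3 or 5 of S10 or without replicate 4 of S12, 5 without replicate 2 of S10, and 2 without replicate 2 or 5 of S12. Without both libraries numbered 2, an alternative added after the data were seen, it was 12. The count of 93 loci moving toward storage was 92 in that case and from 84 to 94 when 1 library was left out. Across 5030 loci, which are not independent replicates and share their libraries, the S12 minus S10 change and the storage minus fibrous difference of the leading row had a Pearson r of 0.351 and a Spearman rho of 0.247.

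**Figure D4:**
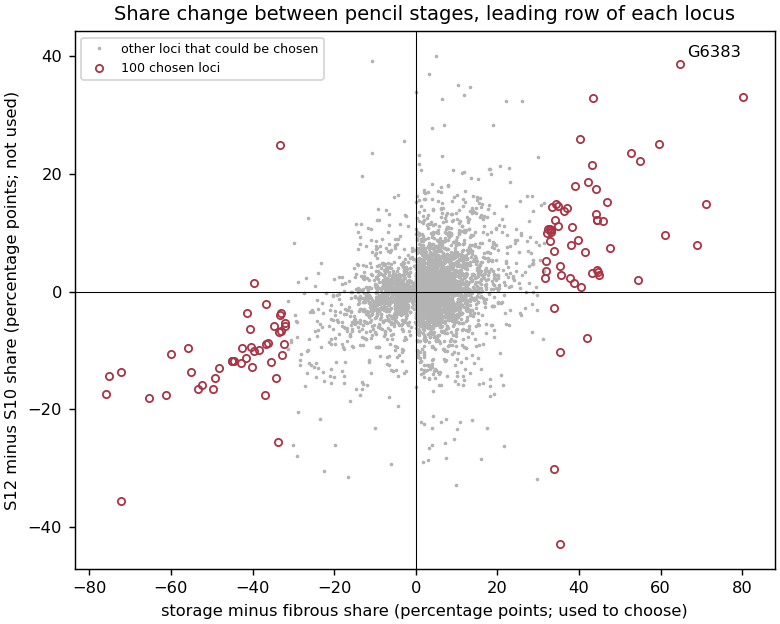
Change in share of the leading row from S10 to S12 (vertical axis, percentage points) against its difference between storage and fibrous class means (horizontal axis, percentage points, the value used to choose the loci), 1 point per locus. Of the 100 chosen loci (open red circles), 93 lie in the upper right or lower left, and the labelled G6383, at 38.6 points, was the only one of them called.

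The steps inside the other classes used libraries that took part in the choice, in contrasts that it averaged over. From S8 against S4, 0 of the 100 loci were called by limma, with 7 at an unadjusted p under 0.05, and the background was 0 of 5030 loci (0%), with 266. The shares moved toward storage in 49 loci, against 58.4% of all loci with a direction. From S14 to S16 again 0 were called, with 13 at an unadjusted p under 0.05, against 0 of 5030 (0%), with 280. Here 50 moved toward storage, against 52.3% of all loci with a direction. The count for S8 against S4 was 1 without replicate 5 of S4.

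From S16 to S20, 7 of the 100 loci were called by limma, against a background of 0.994% (50 of 5030 loci). All 7 changed in the direction of the storage minus fibrous difference. That direction can run past the storage mean, since the median position was 93.0% at S16 and 115% at S20 (93.8% and 118% over all loci that could be chosen). Their changes were between 19.7 and 41.6 points in size, with adjusted p from 0.000158 to 0.0417. At an unadjusted p under 0.05 there were 33, against 432 in all, and 89 of the 100 loci moved toward storage, against 61.8% of all. S20 is part of the storage mean, so a locus with a far value at S20 was more likely to be chosen. Neither the direction nor the number of calls is independent of the choice, and the contrast with all loci is a description. With only the 2 stages fitted, 0 of the 100 loci were called. The count was 12 without replicate 1 of S16, 4 without replicate 2 of S16, 3 without replicate 3 of S16, 4 without replicate 2 of S20 and 2 without replicate 5 of S20.

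The sums of the loci and their single rows were compared between the pencil stages as well. Of the sums of the 100 loci, 0 were called between S10 and S12 by limma on log2(TPM + 1) at an adjusted p under 0.05 and a 2-fold change, with 9 at an unadjusted p under 0.05, where 1.24% of 39072 loci were called higher and 0.202% lower. The count was 1 without replicate 2 or 5 of S10 or replicate 5 of S12. The median change of the sums was -0.15 on the log2 scale, against 0.15 in all. Of the 372 rows, 319 passed the filter on low values, 4 of these were called higher at S12 and 0 lower, with 51 at an unadjusted p under 0.05, and the background was 0.589% of 75757 rows higher and 0.0871% lower. The row count was 0 without replicate 1 or 3 of S10 or replicate 4 of S12, 11 without replicate 2 of S10, and 2 without replicate 5 of S12.

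The 4 rows, named after their values were seen, all belonged to the side that gained share in storage roots. G31756_TU52071 rose by 1.64 (SE 0.37, adjusted p = 0.0316), G6383_TU10529 by 1.26 (SE 0.30, adjusted p = 0.0389), G19720_TU32265 by 1.22 (SE 0.30, adjusted p = 0.0476) and G26458_TU43451 by 1.14 (SE 0.22, adjusted p = 0.0124) on the log2 scale (limma). G26458_TU43451 was the most abundant of them, at 17.5 ± 4.82 TPM in fibrous (SD, n = 8), 71.3 ± 31.3 in pencil (SD, n = 8) and 143 ± 18.6 in storage roots (SD, n = 12), and its share went from 63.3% through 87.8% to 96.4%. It was the main row in each class, while the other 3 were on average below 5 TPM in fibrous and in pencil roots.

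The locus with the largest shift was G32416, with 2 rows. Row G32416_TU53097 held 9.84%, 11.1%, 8.10% and 46.1% of the locus in the 4 libraries of S4, and 6.88%, 6.27%, 12.8% and 8.0% in those of S8. It held 52.4%, 63.1%, 37.7% and 52.0% at S10 and 94.2%, 54.0%, 94.9% and 94.7% at S12. It held 96.4%, 92.4%, 94.5% and 87.6% at S14, 97.1%, 97.6%, 94.4% and 67.0% at S16, and 99.9%, 99.2%, 99.3% and 99.6% at S20. At each of S4, S12 and S16, 1 library stood apart. All S12 libraries but replicate 2 lay within the range of S14. The row was thus the minor one in all fibrous libraries, intermediate in its S10 mean, and the major one in all storage libraries. Its level was 5.92 ± 6.21 TPM in fibrous (SD, n = 8), 133 ± 96.7 in pencil (SD, n = 8) and 818 ± 846 in storage roots (SD, n = 12), where single libraries ran from 78.1 to 3039 TPM. The other row, G32416_TU53098, stood at 37.5 ± 24.1, 41.2 ± 25.8 and 19.3 ± 11.9 TPM, so the classes differed far more in the level of the leading row than in that of its partner. The S12 minus S10 change was 33.2 points (SE 8.65) and did not pass the test (limma, adjusted p = 0.379).

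In G26140, with 3 rows, the leading row G26140_TU42906 went in share from 95.3% ± 3.15 in fibrous (SD, n = 8) through 79.0% ± 16.6 in pencil (SD, n = 8) to 19.4% ± 19.2 in storage roots (SD, n = 12). Fibrous libraries ran from 89.0% to 99.0% and those of S10 from 84.5% to 89.5%. The S12 libraries held 84.0%, 60.9%, 91.0% and 45.5%. All S14 and S20 libraries were below all S12 libraries, between 3.12% and 32.1%, while S16 replicate 1 was at 69.4% and the other 3 of S16 between 8.82% and 27.1%. The row's level went from 295 ± 261 TPM through 134 ± 90.8 to 12.4 ± 21.2, over the same libraries. The other 2 rows were at their highest in storage roots, going from 7.52 ± 1.60 through 20.5 ± 5.27 to 31.0 ± 6.76 TPM in G26140_TU42903 and from 1.21 ± 0.31 through 3.53 ± 1.56 to 7.13 ± 1.76 TPM in G26140_TU42904. The S12 minus S10 change in the share of the leading row was -17.3 points (SE 9.75, limma, adjusted p = 1).

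G23591, with 7 rows, had a main row in fibrous roots that held 22.9% of the locus or less in every storage library. G23591_TU38606 held between 61.3% and 94.2% of the locus in fibrous libraries, with S8 replicate 2 the lowest. It held 45.9%, 36.6%, 55.9% and 45.9% at S10 and 27.8%, 28.2%, 40.5% and 30.2% at S12. In storage roots it held between 0% and 4.77% at S14, between 3.88% and 22.9% at S16, and was listed at 0 in all 4 libraries of S20. The 3 classes did not overlap. In TPM the row stood at 192 ± 77.7 in fibrous (SD, n = 8) and 21.3 ± 12.3 in pencil roots (SD, n = 8), and its highest storage library was at 4.84. G23591_TU38604 was lower in storage roots too, going from 35.7 ± 11.9 through 17.9 ± 7.29 to 8.78 ± 2.86 TPM over the 3 classes, yet its share went from 16.8% through 33.8% to 39.0%. G23591_TU38607 went from 0.78 ± 0.78 through 6.53 ± 2.16 to 7.32 ± 2.12 TPM and reached 33.3% of the locus in storage roots. This was 1 of the 5 loci in which both sides were down. The S12 minus S10 change was -14.4 points (SE 4.43, limma, adjusted p = 0.562).

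G19469 had the most rows, 14, and was among the 3 loci with the highest mean sum. Its leading row G19469_TU31822 held between 47.1% and 57.5% in all fibrous libraries. It held 39.5%, 14.6%, 47.3% and 29.8% at S10 and 15.2%, 13.6%, 15.6% and 20.8% at S12. Storage libraries held between 0.443% and 11.3%, below all pencil libraries, and S10 replicate 2 lay among the S12 libraries. Its level went from 770 ± 233 TPM (SD, n = 8) through 170 ± 113 (SD, n = 8) to 33.1 ± 28.4 (SD, n = 12), and that of G19469_TU31824, the second row of fibrous roots, from 264 ± 88.4 through 69.5 ± 48.6 to 13.2 ± 12 over the same libraries.

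The rows that took over in G19469 were several. G19469_TU31812 went from 36.8 ± 36.5 TPM in fibrous through 76.0 ± 44.1 to 175 ± 52.7 in storage roots, and G19469_TU31813 from 2.83 ± 2.48 through 77.1 ± 39.3 to 147 ± 101 (SD, n = 8, 8 and 12). G19469_TU31819 stood at 63.9 ± 13.2, 96.8 ± 36.0 and 110 ± 36.3 TPM and G19469_TU31818 at 64.2 ± 25.2, 68.7 ± 19.7 and 81.5 ± 27.0. In storage roots these 4 rows held on average 28.0%, 21.2%, 17.4% and 12.8% of the locus, so no single row took the place of G19469_TU31822. The S12 minus S10 change of the leading row was -16.5 points (SE 4.34, limma, adjusted p = 0.386).

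In G29307, with 3 rows, a minor row of fibrous roots was a main row of storage roots, where the other rows stood far lower than in fibrous roots. The mean share in storage roots was 45.9% for this row, G29307_TU48072, and 43.5% for G29307_TU48071, which had the higher mean TPM there. G29307_TU48072 stood at 15.0 ± 4.72 TPM in fibrous (SD, n = 8), 13.5 ± 3.21 in pencil (SD, n = 8) and 23.6 ± 3.73 in storage roots (SD, n = 12). Over the same classes G29307_TU48071 went from 718 ± 335 through 145 ± 38.0 to 40.2 ± 39.4 TPM and G29307_TU48073 from 530 ± 210.1 through 132 ± 35.2 to 13.6 ± 19.8. The share of G29307_TU48072 was between 0.916% and 1.81% in fibrous and between 2.17% and 9.71% in pencil libraries. It was 20.7%, 56.2%, 54.7% and 24.6% at S14, 14.2%, 58.0%, 33.5% and 13.8% at S16, and 81.4%, 79.5%, 35.6% and 78.8% at S20. All storage libraries were above all pencil libraries, and the storage stages overlapped one another. Its S20 minus S16 change of 39.0 points (SE 9.41) was called (limma, adjusted p = 0.0417), and the call was lost without replicate 1, 3 or 4 of S16 or replicate 1, 2 or 5 of S20, at adjusted p from 0.0878 to 0.161, and with only the 2 stages fitted (adjusted p = 0.477).

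G6383, with 2 rows, was the locus called between the pencil stages. G6383_TU10529 held 10.0%, 27.5%, 5.99% and 9.53% of the locus at S10 and 42.4%, 55.0%, 67.4% and 42.8% at S12, without overlap. The change was 38.6 points (SE 6.93, limma, adjusted p = 0.0443). The call was lost without replicate 1, 3 or 5 of S10 or replicate 2 or 4 of S12, at adjusted p from 0.0793 to 0.279, with only the 2 stages fitted (adjusted p = 0.465) and on the log2 ratio scale (adjusted p = 0.270), while the change stayed between 33.5 and 43.4 points over all alternatives tried. In fibrous libraries the row held 40.0%, 25.2%, 6.39% and 5.57% at S4 and 23.2%, 7.29%, 19.1% and 17.1% at S8. It held between 72.7% and 83.5% at S14, between 64.8% and 87.7% at S16 and between 93.3% and 98.3% at S20. The S10 libraries thus lay within the range of the fibrous ones, and S12 overlapped with S16 but not with S14 or S20. The locus was of low level. G6383_TU10529 stood at 2.72 ± 1.49, 2.94 ± 1.93 and 21.5 ± 15.9 TPM in fibrous (SD, n = 8), pencil (SD, n = 8) and storage roots (SD, n = 12), and G6383_TU10530 at 15.0 ± 6.39, 7.37 ± 4.37 and 2.92 ± 1.71.

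G16565, with 2 rows, had the largest called change from S16 to S20. G16565_TU27068 held between 2.92% and 6.44% in fibrous libraries and between 4.36% and 16.1% in pencil libraries, which overlapped with them. It held 21.9%, 29.4%, 38.6% and 19.4% at S14, 25.1%, 25.1%, 33.0% and 49.9% at S16, and 93.4%, 65.3%, 61.4% and 79.6% at S20. S14 and S16 overlapped, and S20 lay above both. The S20 minus S16 change was 41.6 points (SE 5.71, limma, adjusted p = 0.000158), and the call was lost with only the 2 stages fitted (adjusted p = 0.211). G16565_TU27068 went from 4.69 ± 1.49 through 6.92 ± 2.81 to 18.4 ± 7.19 TPM while G16565_TU27066 went from 97.9 ± 28.5 through 59.9 ± 18.1 to 27.2 ± 16.7 (fibrous, pencil and storage, SD, n = 8, 8 and 12).

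**Figure D5:**
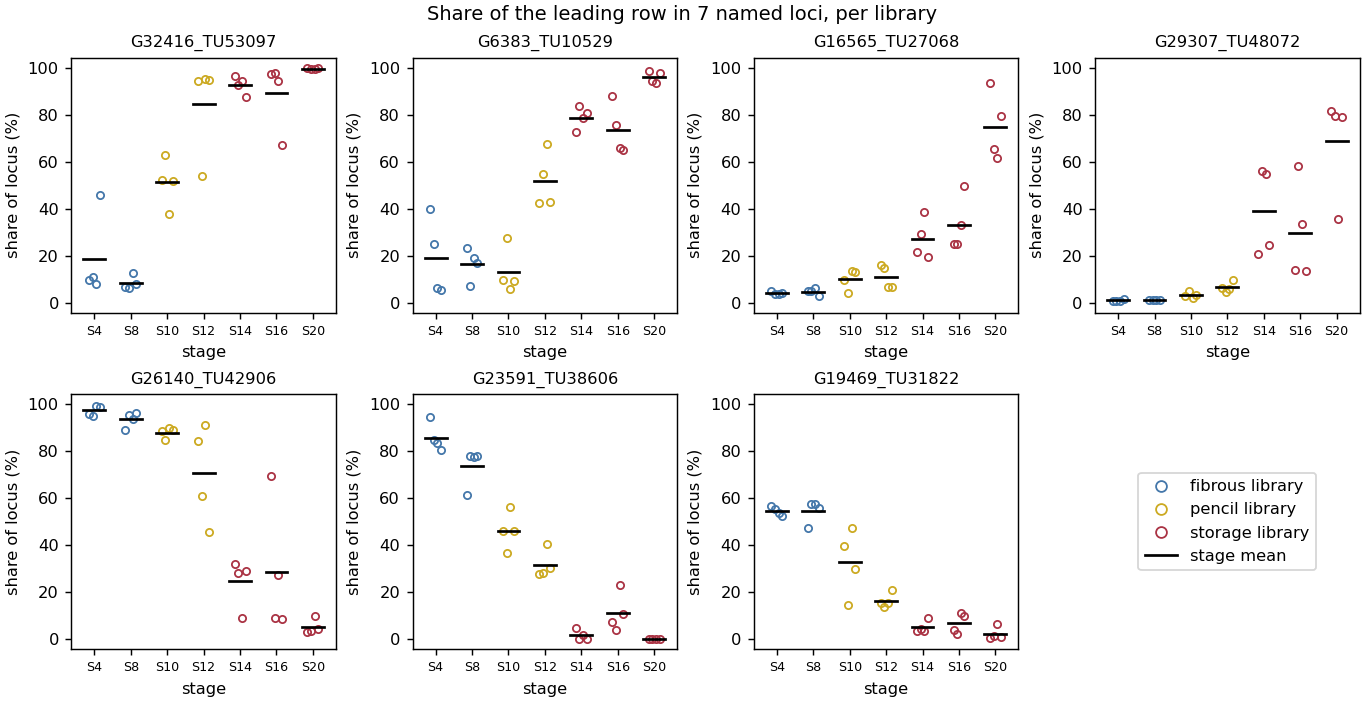
Share of the leading row (percent of the summed TPM of its locus) in each library of 7 loci, by stage, with open circles for libraries coloured by root class and bars for stage means. The upper panels show rows that gained share and the lower panels rows that lost it. G32416 had stage means of 51.3% at S10 and 84.5% at S12, whereas G16565 and G29307 held 16.1% or less in every pencil library.

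Replicates of a stage were also farther apart in many of these loci, given here as a description since most of the libraries took part in the choice. The pooled SD of the leading row's share within stages had a median of 10.4 points in the 100 loci, from 4.58 to 45.1, against 5.90 points over all loci that could be chosen. In 12 of the 100 loci, against 2.37% of all, at least 1 stage held a library with 20% or less and another with 80% or more. The loci with the highest and next highest SD, G5784 (45.1 points) and G22544 (38.1 points), were picked out after their values were seen.

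In G5784, with 2 rows, G5784_TU9529 held 0.119%, 93.8%, 98.5% and 99.7% of the locus at S10, 0%, 0%, 99.9% and 20.5% at S12, and 100%, 99.9%, 99.4% and 0% at S16. The sum of the locus was between 17.2 and 33.2 TPM in the fibrous and pencil libraries. In the pencil libraries 1 row stood in for the other, with shares of G5784_TU9529 from 0% to 99.9%. Its S12 minus S10 change of -42.9 points (SE 31.1, limma, adjusted p = 1) was the largest of the 7 that ran against the storage minus fibrous difference. In G22544, with 3 rows, G22544_TU36861 was listed at 0 in all 4 libraries of S10, held 0%, 100%, 0% and 0% at S12, and 0%, 100%, 100% and 100% at S8. In both loci replicates of 1 stage lay at opposite ends of the scale, and their class means average libraries of both kinds. Of the 100 loci, 8 had another of the 100 within 10 G numbers, and whether G numbers follow the genome is not given in the sources used here.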

How the data were processed

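Root RNA of 28 sweet potato libraries, 4 per stage, was analysed from 1 table of TPM values that the authors deposited, with 2 decimals. Per the submitters' processing notes TopHat2 2.0.0 and RSEM 1.3.1 were used. Their roles, the genome build and the annotation are not given in the sources used here. Library totals lay between 999998 and 1000000 TPM, and no 2 libraries were identical. Depth is unknown. Shares were computed from the TPM of the rows of a locus. limma 3.58.1 in R 4.3.3 with a trended prior was fitted to 7 stage means over all 28 libraries, on shares in percentage points and on log2(TPM + 1) for rows with at least 1 TPM in 4 libraries and for locus sums with a mean of at least 1 TPM. Benjamini-Hochberg adjustment ran over all rows or sums tested, with calls at an adjusted p under 0.05 and 10 points or a log2 change of 1. Fold changes with 1 TPM added understate those of low rows. The fitting code was checked on simulated data, which are not quoted.

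In loci with 2 rows the leading row is the gaining one, a choice made after the data were seen. The members, lists and rules were chosen with earlier results of these data known. Loci named are the 3 with the largest share difference, the 3 with the highest sum, the largest called change in each step and the locus with the most rows. Alternatives covered the share scale, thresholds, filters, scaling, library weights, a replicate block, the samples fitted and each library left out. Python 3.11.15, NumPy 2.4.6, pandas 2.3.3 and Matplotlib 3.10.9 were used.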

Additional observations from a re-analysis of the deposited data

Results flagged for a closer look

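In 49 groups of 4 libraries (7 loci at 7 stages), 10 held 1 library whose share of the leading row stood apart by Dixon's criterion, where chance gives about 1 in 20. In G32416_TU53097 these were S4 replicate 5 at 46.1% (others 8.10% to 11.1%), S12 replicate 2 at 54.0% (others 94.2% to 94.9%) and S16 replicate 4 at 67.0% (others 94.4% to 97.6%). In G23591_TU38606 it was S8 replicate 2 at 61.3% (others 77.5% to 77.7%). In G19469_TU31822 they were S8 replicate 2 at 47.1% (others 55.9% to 57.5%), S14 replicate 5 at 9.13% (others 3.50% to 4.27%) and S20 replicate 3 at 6.37% (others 0.443% to 1.40%). In G29307_TU48072 they were S4 replicate 5 at 1.81% (others 0.916% to 0.966%), S8 replicate 4 at 1.50% (others 1.3% to 1.32%) and S20 replicate 3 at 35.6% (others 78.8% to 81.4%). In S20 replicate 3 the latter 2 loci both stood on the side of the fibrous roots.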

How the results depend on the processing

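Counts of called loci rested on few calls. The share and row counts between the pencil stages moved with most settings and the other counts with fewer, and the cause was not tested. The choice itself kept 58 of the 100 loci at a minimum sum of 20 TPM and 62 at 5 TPM, and from 79 to 98 under all other alternatives. The S10 to S12 share count of 1 was 10 with library weights, 2 with locus sums under 5 TPM left out, 12 without both libraries numbered 2, and 0 on the log2 ratio scale, with only the 2 stages compared, or with a replicate block (0 with either the description or the title numbers). It ran from 0 to 5 when 1 library was left out. The S16 to S20 count of 7 was 0 with only the 2 stages compared and from 2 to 12 with 1 library left out, and that for S8 against S4 from 0 to 1. Rows called between pencil stages, 4 in all, numbered 1 under median-of-ratios scaling, quantile normalization, a pseudocount of 5 or a replicate block, 0 with only the 2 stages compared, and from 0 to 11 with 1 library left out. For sums the count was 1 with no minimum change and from 0 to 1 with 1 library left out. Loci with the gaining side up and the losing side flat were 11 under median-of-ratios scaling. The 8 loci called in a share step kept their direction in all alternatives run for them, and other loci were not followed singly. Whether the replicate numbers pair the samples was not settled. With the description numbers, correlations of deviations between same-numbered S10 and S12 libraries were -0.013, 0.101 and 0.088. There 4 of 6 libraries correlated best with their own number, as did 3 of 6 between S4 and S8 and 0 of 6 in either storage step. With the title numbers it was 4 of 8 between S4 and S8, 5 of 8 between S10 and S12, 4 of 8 between S14 and S16, and 0 of 8 between S16 and S20. Single correlations between S4 and S8 ran from -0.113 to 0.428 over both numberings. The block moved no other count by over 1.5 times, but among the loci named, with the description numbers, the calls of G6383 (adjusted p = 0.139) and G29307 (adjusted p = 0.102) were lost, as was that of G6383 with the title numbers (adjusted p = 0.0701). Depth is unknown, so no share has a counting interval.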
